A study of Mus musculus with 12 samples.

Results

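The genes that write, maintain and remove DNA methylation in mouse embryonic stem cells were followed through newly transcribed and total RNA. They are the 9 genes Dnmt1, Uhrf1, Dnmt3a, Dnmt3b, Dnmt3l, Tet1, Tet2, Tet3 and Tdg, out of 34079 genes with a row in the table. Members were taken by gene name, with all transcripts in the table that the GENCODE M1 annotation assigns to them. This gave 63 of 121429 exonic rows and 63 of 91702 intronic rows. The cells were mESCs of the DTCM23/49 XY line, grown without feeder cells on gelatin in serum with LIF, the cytokine that keeps them undifferentiated. Every culture received 200 µM 4-thiouridine (4sU), a uridine analog that enters RNA while it is being made, for 15, 30 or 60 min. At each time, RNA that carried 4sU was biotinylated and pulled down (labeled RNA), and unselected RNA was sequenced beside it (total RNA). There were 2 biological replicates for each of these 6 groups, giving 12 libraries. The replicates came from 1 culture of 1 line, divided and passaged 8 times, so the spread between them is that between sister cultures. There was no group without 4sU.

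In mammals, methyl groups are placed mostly on the cytosine of CpG. DNMT1, brought to replicating DNA by UHRF1, copies the pattern onto the new strand, whereas DNMT3A and DNMT3B methylate unmethylated sites, helped by DNMT3L, which has no activity of its own. TET1, TET2 and TET3 oxidize 5-methylcytosine, and TDG cuts out the more oxidized bases so that base excision repair can restore an unmethylated cytosine. Embryonic stem cells are known to express both arms of this pathway.

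The promoters of these genes differ widely in the CpG they carry, which is the target of the proteins they encode. RefSeq held 16 promoter records for the 9 genes on GRCm38.p6, the mm10 assembly. Among 32851 mouse promoter records, the median number of CG in the 250 bases before the start site was 6. Records with few, more and many CG are shown to make the contrast visible, with each CG in capitals, which reads the same on both strands. For Dnmt3l, the record farthest upstream is printed (chr10:78042037-78042286, plus strand). It held 5 CG, and 55.6% of all records had as many or more. For Dnmt3b (chr2:153649199-153649448, plus strand) there were 21 CG, a number reached by 16.3% of records. For Tet2 (chr3:133544391-133544640, minus strand) there were 51 CG, a number reached by 0.0670% of records.
Dnmt3l: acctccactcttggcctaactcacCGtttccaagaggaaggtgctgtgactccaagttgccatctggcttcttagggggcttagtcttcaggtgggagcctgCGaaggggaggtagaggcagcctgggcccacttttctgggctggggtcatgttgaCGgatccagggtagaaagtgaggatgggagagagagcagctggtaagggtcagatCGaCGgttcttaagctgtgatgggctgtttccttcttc
Dnmt3b: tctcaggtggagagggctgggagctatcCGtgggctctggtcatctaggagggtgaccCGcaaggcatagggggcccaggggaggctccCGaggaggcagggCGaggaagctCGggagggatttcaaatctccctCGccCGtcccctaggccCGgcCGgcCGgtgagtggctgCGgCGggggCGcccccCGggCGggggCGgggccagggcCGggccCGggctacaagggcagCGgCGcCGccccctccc
Tet2: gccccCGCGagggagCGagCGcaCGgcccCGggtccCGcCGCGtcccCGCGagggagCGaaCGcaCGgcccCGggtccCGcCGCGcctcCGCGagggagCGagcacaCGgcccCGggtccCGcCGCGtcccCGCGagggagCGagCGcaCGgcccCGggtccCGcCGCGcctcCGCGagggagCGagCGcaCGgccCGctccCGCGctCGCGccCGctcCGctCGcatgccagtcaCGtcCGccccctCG
The 2 other Dnmt3l records held 4 and 3 CG, so all 3 lay below the median of all records. The records of Dnmt1 held 2, 7 and 26 CG and those of Dnmt3a 38, 40 and 15. Single records of Tdg, Tet3 and Tet1 held 19, 17 and 15 CG, and those of Uhrf1 10 and 30. Promoter methylation was not measured in these cells, and which of several records of a gene was in use was not examined.

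Each library had the same total of values, 19988830 to 19992902, in length-normalized units of about 20 times TPM, so levels are shares of a library. Less RNA of a gene per cell and fewer cells with that RNA cannot be told apart, and neither sequencing depth nor counting error can be had from such values. All 8 embryonic stem cell markers passed the filter on low values, and their summed exonic level was 12706 to 17525 in total RNA and 14195 to 23823 in labeled RNA. Markers of primitive endoderm, mesoderm and trophectoderm passed in 0 of 6, 0 of 4 and 0 of 4 cases. As medians over protein-coding transcripts, Cdx2, Elf5, Tfap2c, Mesp1, Sox1, Col3a1 and Lum came out at 0 in all libraries. Missing values and genes without a protein-coding row were also taken as 0, so this does not show absence of their RNA. Of 6 fibroblast markers 2 passed (summed level 75.5 to 151), and of 4 neural markers 1 (142 to 368). Introns took 6.53% to 7.41% of the values in total RNA. In labeled RNA of replicate 1 they took 14.8%, 9.35% and 13.9% at 15, 30 and 60 min, and in that of replicate 2 7.24%, 10.8% and 6.99%. Labeled libraries of replicate 2 at 15 and 60 min thus lay within the range of total RNA, and the counts of members in the comparisons of labeled with total RNA over all times are also given without them. Whether they hold labeled RNA to the same degree as the other labeled libraries was not tested, and this bears on every value of theirs.

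Tet1, the dioxygenase that predominates in undifferentiated cells, was the most abundant of the 9 genes. To compare genes, the median over a gene's protein-coding transcripts was used. Values are per length, and a sum would grow with the number of annotated transcripts if reads were not divided among them. Whether they were divided is not given. In total RNA, Tet1 stood at 1024 to 1467 (mean 1276 ± 168, SD, n = 6), which placed it at percentile 95 among 8497 genes. It was above every other member in all 6 libraries. A group of 5 genes followed, in which the ranges of neighbors overlapped. Dnmt3b stood at 493 ± 57.1, Tet2 at 459 ± 58.0 and Dnmt3l at 388 ± 60.8 (SD, n = 6). Dnmt1 stood at 367 ± 23.1 and its partner Uhrf1 at 329 ± 44.3. Neighbors in this order did not separate beyond their spread, although Tet2 exceeded Dnmt3l in 6 of 6 libraries. Dnmt3a (139 ± 12.3) and Tdg (120 ± 9.57) came next, both below the lowest Uhrf1 library (255). Their ranges overlapped, with Dnmt3a above Tdg in 6 of 6 libraries. Tet3 was by far the lowest at 8.93 ± 0.443, under the filter of 20 for single transcripts. Thus, by this median the 3 Tet genes spanned nearly the whole range of the family. Tet1 was at the top, Tet2 in the middle group and Tet3 at the bottom. By sums over transcripts, Tet1 (mean 10077) and Tet3 (19.4) kept their places. However, Tet2 (459) and Dnmt1 (367) then lay below Dnmt3a (2497) and Tdg (617).

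**Figure D1:**
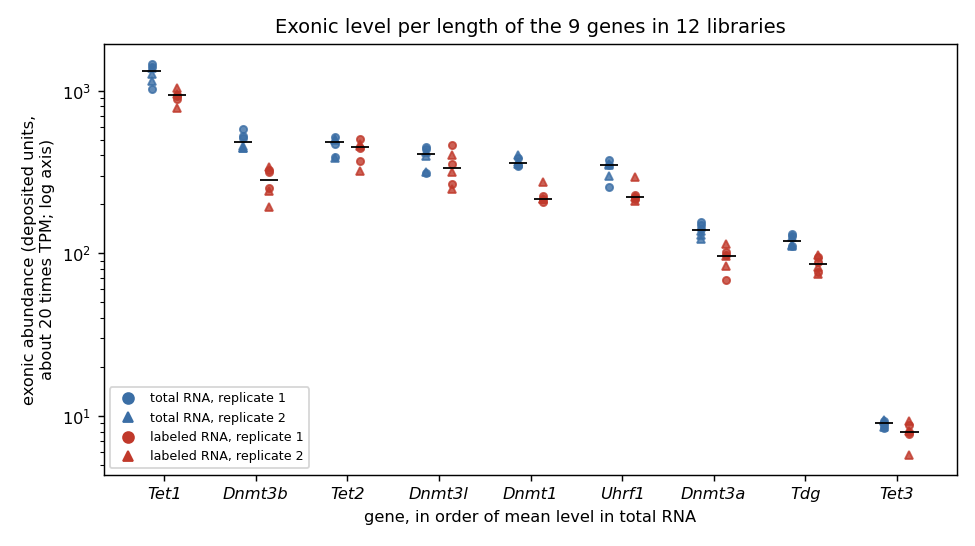
Exonic level per length of the 9 genes in each library (log axis, deposited units of about 20 times TPM). Points are libraries, circles replicate 1 and triangles replicate 2, blue total and red labeled RNA, and black bars are medians of 6 libraries. Tet1 lies above all others in total RNA (1024 to 1467) and Tet3 below all others (8.41 to 9.40).

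To find which transcripts of the pathway were underrepresented among newly made RNA, labeled and total RNA were compared over all 12 libraries with labeling time as a covariate. Values of a gene's transcripts were summed for this test, and fold changes are on the log2(value + 1) scale (limma, Benjamini-Hochberg adjustment). Exonic RNA of 5 of the 9 genes was lower in labeled RNA, and that of none was higher. These were Dnmt1, Uhrf1, Dnmt3a, Dnmt3b and Tet1. Of 13977 genes tested, 16.8% passed in either direction, 11.6% as lower and 5.28% as higher. The median difference was -0.43 over the members and -0.05 over all genes.

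Both maintenance genes were lower in labeled RNA. For Dnmt1, the summed exonic level was 346 at the lowest, 360 at the median and 404 at the highest of 6 total libraries, against 206, 217 and 274 in labeled RNA. All total libraries lay above all labeled ones. The difference was -0.70 (log2, SE 0.10, adjusted p = 0.00159, limma), that is 1.63-fold lower. For Uhrf1, the hemimethylated-DNA reader, levels were 1434, 1686 and 1863 in total RNA and 1075, 1165 and 1549 in labeled RNA. The ranges overlapped through 1 labeled library, replicate 2 at 15 min, and the difference was -0.46 (SE 0.10, adjusted p = 0.0116, limma).

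Both catalytic de novo enzymes were lower in labeled RNA as well, whereas their cofactor did not pass the test. Dnmt3b stood at 4590, 5055 and 6224 (lowest, median and highest) in total RNA and at 2184, 3083 and 3569 in labeled RNA. Its groups did not overlap, and its difference, -0.81 (SE 0.13, adjusted p = 0.00244, limma), was the farthest from 0 of the 9 genes. Dnmt3a stood at 2242, 2550 and 2683 in total RNA and at 1132, 1711 and 1946 in labeled RNA. Again no labeled library reached the lowest total one, with a difference of -0.65 (SE 0.13, adjusted p = 0.00799, limma). Dnmt3l overlapped widely, at 2041, 2885 and 3179 in total RNA and 1624, 2294 and 3227 in labeled RNA. The estimate was -0.21 with a 95% interval of -0.61 to 0.19 (adjusted p = 0.463, limma), which leaves room for a difference of the size seen for Uhrf1. Whether Dnmt3l differed from Dnmt3a or Dnmt3b in this respect was not tested.

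Among the Tet genes, Tet1 alone passed. It stood at 8180, 10451 and 11658 in total RNA and at 6691, 7471 and 8431 in labeled RNA. Only the highest labeled library exceeded the lowest total one, and the difference was -0.43 (SE 0.10, adjusted p = 0.0136, limma). Tet2 levels were 383, 481 and 517 in total RNA and 323, 451 and 507 in labeled RNA, nearly the same range. Its estimate was -0.11 with an interval of -0.41 to 0.19 (adjusted p = 0.633, limma). For Tet3, 14.2 to 22.8 in total and 12.3 to 27.5 in labeled RNA, the estimate was 0.11 (interval -0.44 to 0.65, adjusted p = 0.803, limma), which spans changes in both directions. Under quantile normalization the estimates of Tet2 and Tet3 changed sign (0.01 and -0.07) and still did not pass.

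Tdg, the glycosylase, depended on which of its transcripts were summed. Its levels were 549, 619 and 661 in total RNA and 432, 525 and 656 in labeled RNA, with an estimate of -0.25 (SE 0.12, adjusted p = 0.179, limma). With protein-coding transcripts only, the difference was -0.45 (adjusted p = 0.00993, limma), and with the median over them, a choice made after seeing the data, it was -0.48 (adjusted p = 0.00580, limma). As this median, Tdg stood at 110 to 131 in total RNA and at 74.3 to 96.8 in labeled RNA, without overlap.

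Each of the 5 calls was lost when all libraries of replicate 1 or of replicate 2 were left out, with estimates that stayed below 0 (Dnmt3b -0.84 to -0.79, Dnmt1 -0.74 to -0.67, Dnmt3a -0.82 to -0.48, Tet1 -0.49 to -0.37, Uhrf1 -0.47 to -0.44). In these smaller sets 0 and 5 of all genes passed. Of 200 genes simulated with a log2 change of 1, 0 were recovered without replicate 1, against 120 with all libraries. Without labeled replicate 2 at 15 and 60 min, the same 5 genes passed, at -0.75 for Dnmt1, -0.51 for Uhrf1, -0.77 for Dnmt3a, -0.75 for Dnmt3b and -0.45 for Tet1. The number of all genes called changed with the libraries left out too, and its range is given in the last section. With replicate number as a block, Uhrf1 and Tet1 did not pass, with values given there as well.

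**Figure D2:**
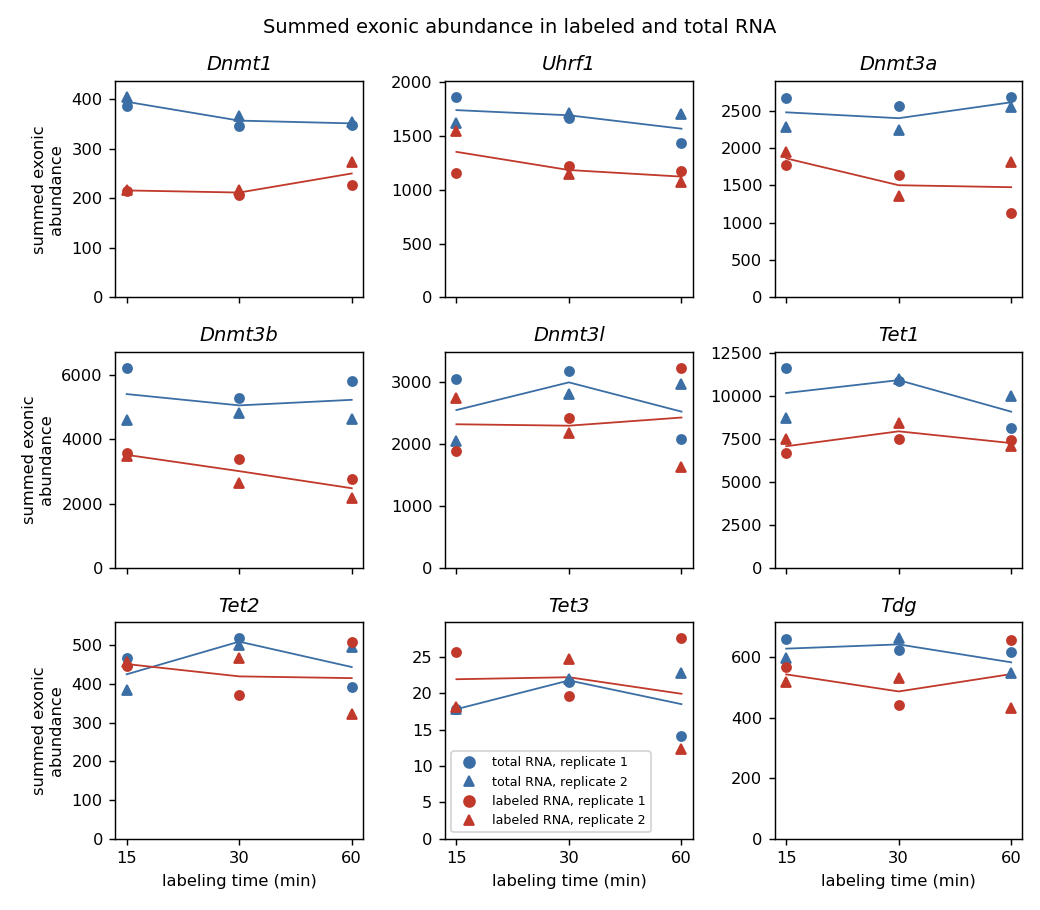
Summed exonic abundance (deposited units) of each gene against labeling time in min; circles are replicate 1, triangles replicate 2, and lines join the means of both. For Dnmt1, Dnmt3a and Dnmt3b every total library (blue) lies above every labeled library (red), as with Dnmt1 at 346 to 404 against 206 to 274.

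Labeling and capture depend on uridines, which these transcripts hold in unequal share. In the most abundant protein-coding transcript of each gene, the share of U was 20.1% for Dnmt3a, 20.3% for Dnmt1, 22.4% for Dnmt3b and 23.4% for Uhrf1. It was 24.2% for Tet3, 25% for Tet2, 25.6% for Dnmt3l, 26.0% for Tdg and 27.8% for Tet1. The median of 9088 genes was 24.5%. Thus 4 of the 5 genes that were lower in labeled RNA had a share of U below that median, and Tet1 had the highest share of the 9. The number of U per transcript gave another picture, with a median of 551.5. Dnmt1 (1069), Dnmt3b (956), Uhrf1 (792) and Tet1 (4001) were above it and Dnmt3a (469) below. Of the genes that did not pass, Tet3 (2636), Tet2 (2293) and Tdg (769) were above it and Dnmt3l (285) below. The form taken matters here. For Dnmt3a it was Dnmt3a-005 with 2328 bases, where the coding form Dnmt3a-001 has 9685. For Dnmt3l it was Dnmt3l-004 with 1113 bases, where Dnmt3l-001 has 1822. U was not counted in the longer forms, so the places of these genes hold for the form taken only. The part of U content in the result was not tested.

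Single transcripts were tested in the same way, to see which annotated forms carried the difference. Of 53 member transcripts past the filter, 32 were lower in labeled RNA and 0 higher, where 12% of 45537 transcripts tested were lower. Transcripts of 1 gene share sequence and are not replicates. The 32 were 11 of 12 Dnmt3a transcripts, 10 of 12 of Dnmt3b, 5 of 6 of Tet1, 3 of 7 of Uhrf1, 2 of 7 of Tdg and the 1 transcript of Dnmt1, whereas 0 of 7 Dnmt3l transcripts and not the 1 of Tet2 passed. No Tet3 transcript reached the filter. Without labeled replicate 2 at 15 and 60 min, 34 of the 53 were lower, and without all libraries of either replicate number 0 were. How many of all transcripts passed also changed with the libraries left out, and that range is given in the last section.

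For Dnmt3b, all 10 protein-coding forms were lower, from -0.99 (Dnmt3b-201) through Dnmt3b-001, Dnmt3b-003, Dnmt3b-009, Dnmt3b-002, Dnmt3b-007, Dnmt3b-006, Dnmt3b-004 and Dnmt3b-005 to -0.69 (Dnmt3b-008). In Dnmt3a, the protein-coding forms ran from -0.82 (Dnmt3a-008) through Dnmt3a-012, Dnmt3a-010, Dnmt3a-006, Dnmt3a-016, Dnmt3a-005 and Dnmt3a-201 to -0.53 (Dnmt3a-001), with Dnmt3a-013 (-0.40, adjusted p = 0.353, limma) as the 1 that did not pass. The forms annotated as targets of nonsense-mediated decay, Dnmt3a-015 (-0.80) and Dnmt3a-004 (-0.69), lay among them. In Dnmt1 the form was Dnmt1-201 (-0.70). In contrast to the coding forms of Dnmt3b, its retained-intron form Dnmt3b-010 had an estimate of 0.11 (interval -0.33 to 0.54, adjusted p = 0.748, limma), and its interval lay above those of the 10 coding forms. The other retained-intron form, Dnmt3b-011, was at -0.67 (adjusted p = 0.0936, limma). In Tdg, the coding forms Tdg-001 (-0.53, adjusted p = 0.00736) and Tdg-002 (-0.48, adjusted p = 0.0119) were lower by limma, whereas the coding form Tdg-004 (-0.26, adjusted p = 0.289) did not pass. Estimates of its 4 retained-intron and processed forms ranged from -0.20 to 0.05 and did not pass. A retained-intron label did not go with one direction throughout, since Dnmt3a-014 of this class was lower by -1.32 (SE 0.41, adjusted p = 0.0473, limma), with the widest interval of the 32. Differences between transcripts of 1 gene were not tested.

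In Tet1, Tet1-005 (-0.80), Tet1-003 (-0.76) and Tet1-004 (-0.57) were lower, as were Tet1-201 (-0.40) and Tet1-001 (-0.38). Tet1-002, a processed transcript and the most abundant form, was at -0.31 (adjusted p = 0.0760, limma). In Uhrf1, Uhrf1-003 (-0.62), Uhrf1-002 (-0.50) and Uhrf1-004 (-0.44) passed and Uhrf1-001 (-0.42, adjusted p = 0.0504, limma) just missed the threshold. Dnmt3l transcripts were spread from -0.55 (Dnmt3l-008) to -0.05 (Dnmt3l-006), all with intervals that included 0.

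**Figure D3:**
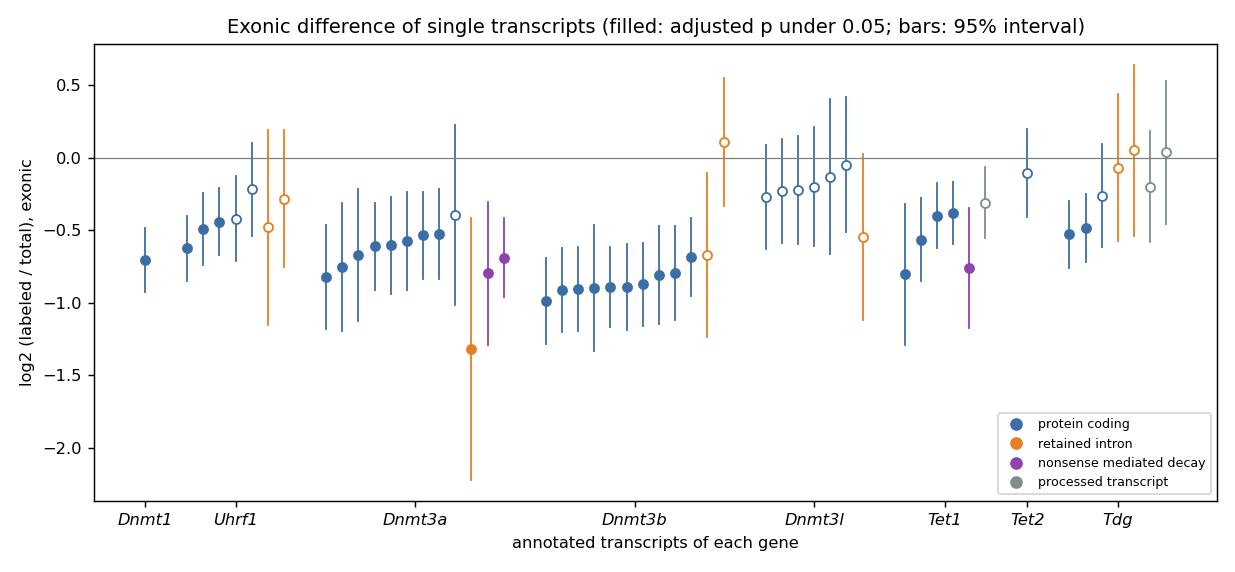
Exonic log2 difference between labeled and total RNA for the 53 annotated transcripts past the filter, grouped by gene and colored by transcript class; filled points passed at an adjusted p under 0.05 and bars are 95% intervals. All 10 protein-coding Dnmt3b forms lie between -0.99 and -0.69, and Dnmt3b-010 at 0.11.

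Intronic RNA, which stands for unprocessed transcripts, was compared in the same way. Intronic signal of 32.3% of 9117 genes was higher in labeled RNA and that of 0.329% lower, with a median of 0.65. Of the members, 7 could be tested, and 2 passed, both higher. Dnmt1 (mean 13.1 ± 1.37 in total and 23.4 ± 11.4 in labeled RNA, SD, n = 6) and Tet3 (6.03 ± 0.476 and 9.24 ± 6.53) were under the filter of 20.

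Uhrf1 introns stood at 56.2, 76.5 and 86.1 (lowest, median and highest) in total RNA and at 74.5, 147 and 264 in labeled RNA. All labeled libraries but replicate 2 at 15 min exceeded the highest total one, and the difference was 0.88 (SE 0.30, adjusted p = 0.0366, limma). Dnmt3l introns stood at 59.2, 87.2 and 99.5 in total RNA and at 90.1, 141 and 225 in labeled RNA, a difference of 0.85 (SE 0.29, adjusted p = 0.0390, limma). Introns of Dnmt3l were therefore called while its exons were not.

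Estimates for Tdg (0.60), Dnmt3b (0.52), Tet1 (0.15), Dnmt3a (0.07) and Tet2 (0.06) did not pass, and 5 of the 7 members lay below the median of all genes. Dnmt3a introns stood at 160, 216 and 244 in total RNA and at 175, 213 and 326 in labeled RNA, nearly the same. Dnmt3a-016 held a large part of this sum, with a mean of 99.3 of 212 in total RNA and 74.1 of 225 in labeled RNA. The median over protein-coding transcripts was 4.32 ± 0.445 in total and 6.99 ± 3.12 in labeled RNA (SD, n = 6), with overlapping ranges. Scaled values of Dnmt3a below are of the sum. For Tet1, labeled replicate 1 reached 379 and 386 at 15 and 60 min, where replicate 2 had 58.4 and 117. Both replicate 2 values were at or below the range of total RNA (117 to 189), as was labeled replicate 1 at 30 min with 98.3. Without labeled replicate 2 at 15 and 60 min, 5 of 7 members were higher, Uhrf1 by 1.23, Dnmt3l by 1.16, Tdg by 1.10, Dnmt3b by 0.88 and Tet2 by 0.71, and 8141 genes passed in place of 2976. When the intronic values were brought to a common total, to equal quantiles or to a common median, Uhrf1 and Dnmt3l no longer passed (0.15 to 0.34), Dnmt3a was lower (-0.64 to -0.47) and Dnmt3b, Tet1 and Tet2 fell below 0. Tdg fell below 0 under the latter pair of scalings. By construction these scalings move the median of all genes from 0.65 to between -0.06 and 0.11, and members below that median go down with it.

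The intronic to exonic ratio leaves out any factor that exons and introns of a library share, though not one of introns alone. It was higher in labeled RNA for 3 of 7 members, where 28% of 7731 genes passed, 27.8% as higher and 0.207% as lower, and the median was 0.68. These were Dnmt3b (1.34, SE 0.30, adjusted p = 0.00906), Uhrf1 (1.33, SE 0.35, adjusted p = 0.0147) and Dnmt3l (1.06, SE 0.34, adjusted p = 0.0345, limma). As a share of exonic abundance, Dnmt3b introns were 2.95% to 4.07% in total RNA and 5.51% to 14.2% in labeled RNA, without overlap. Tdg (0.84, adjusted p = 0.0628), Dnmt3a (0.72, adjusted p = 0.0692), Tet1 (0.58, adjusted p = 0.293) and Tet2 (0.17, adjusted p = 0.734) did not pass by limma. Dnmt3a nevertheless had 6.27% to 9.40% in total RNA and 9.61% to 21.0% in labeled RNA, also without overlap. Dnmt1, too low for the test, had 3.19% to 4.48% and 4.75% to 18.5%. In both genes the labeled values nearest to total RNA were those of replicate 2 at 15 and 60 min. Without these libraries all 7 members were higher, at 0.75 (Tet2) to 1.74 (Uhrf1), with 6401 genes called.

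The genes also differed in how much intronic signal total RNA held. In total RNA, introns amounted to 1.46% ± 0.202 of exonic abundance in Tet1 and to 22.9% ± 2.77 in Tdg (SD, n = 6). Tet3 had 31.8% ± 5.22, at its low level. The remaining 6 genes had 3.12% ± 1.03 (Dnmt3l) to 8.53% ± 1.19 (Dnmt3a). These shares are of sums and depend on the transcripts summed. As medians over protein-coding transcripts, mean intronic and exonic levels in total RNA were 25.8 and 1276 for Tet1. They were 15.0 and 120 for Tdg and 4.32 and 139 for Dnmt3a.

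**Figure D4:**
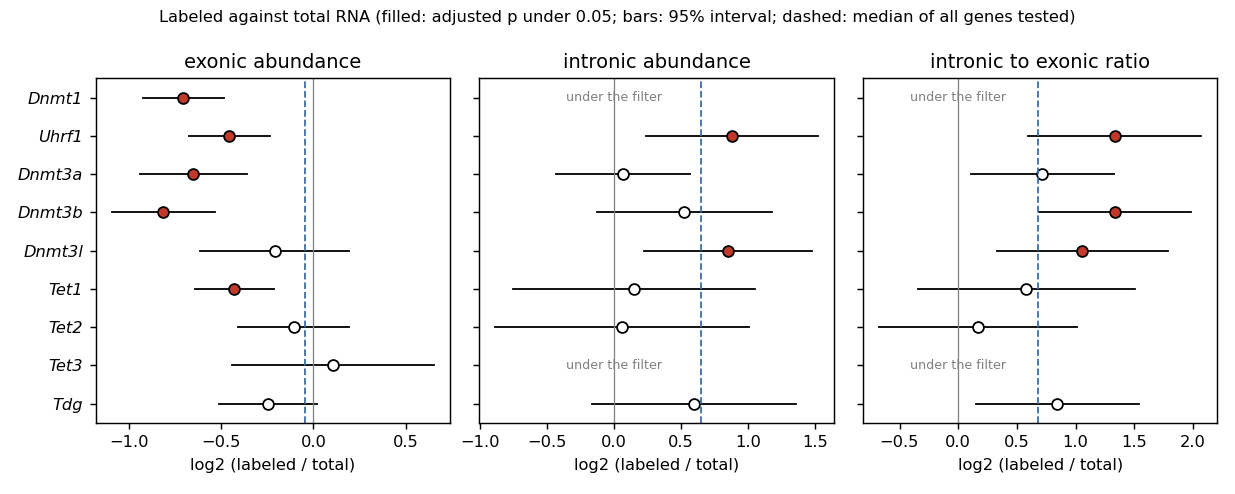
Log2 difference between labeled and total RNA for exonic abundance, intronic abundance and their ratio; points are estimates over 12 libraries, filled where the adjusted p was under 0.05, bars 95% intervals and the dashed line the median of all genes tested. Exonic estimates of 5 genes lie at -0.81 to -0.43 and are filled, and the ratio is filled for Uhrf1, Dnmt3b and Dnmt3l.

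Labeling time was compared next, since unstable and stable RNA accumulate label differently. No member differed between 60 and 15 min, in labeled or in total RNA, and neither did the difference between the fractions. In these fits no gene of 13977 passed (0% called; limma), while 178, 108 and 162 had an unadjusted p under 0.05. Dnmt3b in labeled RNA was at 3569 and 3467 at 15 min, 3388 and 2636 at 30 min and 2778 and 2184 at 60 min (replicates 1 and 2). The libraries at 60 min were below those at 15 min, with an estimate of -0.51 (interval -1.02 to -0.01, adjusted p = 1, limma). In total RNA the estimate was -0.04 (interval -0.54 to 0.46), and the difference of both was -0.47 (interval -1.18 to 0.24, adjusted p = 1, limma). Dnmt1 in labeled RNA was at 214 and 217 at 15 min and at 226 and 274 at 60 min, with an estimate of 0.20 (interval -0.20 to 0.61). Of 200 genes simulated with a log2 change of 1, 8 were recovered between 60 and 15 min in labeled RNA and 1 in the difference between fractions. These 200 were drawn at random from all genes tested, so recovery for genes as abundant as the members is not known. The lack of calls in these contrasts therefore does not show that levels stayed the same.

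At single labeling times, 0, 4 and 0 genes passed at 15, 30 and 60 min, which is 0%, 0.0286% and 0%, with 1566, 1656 and 1660 at an unadjusted p under 0.05. No member was among them. Estimates for Dnmt1 were -0.87, -0.75 and -0.50 at 15, 30 and 60 min, and those for Dnmt3b -0.60, -0.76 and -1.08. The smallest adjusted p of the 9 genes at any time was 0.198 (Dnmt1 at 15 min, limma).

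Rates were derived from the same values, and so are another view of these libraries and no separate evidence. Synthesis was taken as labeled exonic abundance per hour of labeling, processing as synthesis over total intronic abundance, and degradation as synthesis over total exonic less intronic abundance. Since every library has the same total, the median degradation rate over all genes fell from 4.73 per hour at 15 min to 1.15 per hour at 60 min. Ranks within a labeling time were therefore used, as a description. At 30 min, where both labeled replicates stood apart from total RNA, ranks were over 10100 genes for degradation and 10571 for processing.

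The methyltransferases with catalytic activity had low ranks in degradation at 30 min. There, Dnmt1 had 1.23 per hour (replicates 1.23 and 1.23) and Dnmt3b 1.24 per hour (1.33 and 1.14), at percentiles 2.70 and 2.85. Dnmt3a followed at 1.38 per hour (percentile 6.52), Uhrf1 at 1.47 (percentile 10.1) and Tet1 at 1.48 (percentile 10.3). Over the 3 times, Dnmt3b stayed at percentiles 0.533 to 3.97 and Dnmt1 at 0.899 to 10.1. Dnmt3l was at 1.58 per hour (percentile 15.5), Tet2 at 1.74 (24.1), Tdg at 2.01 (38.5) and Tet3 at 2.92 (70.1). Single replicates varied more. Those of Dnmt3b ran from percentile 1.41 to 9.57 over the times, those of Dnmt1 from 2.33 to 37.5, of Dnmt3a from 1.65 to 33.9, of Dnmt3l from 11.6 to 61.6 and of Tet3 from 30.4 to 87.8. The highest for Dnmt1 and Dnmt3a came from replicate 2 at 60 min, whose labeled library had an intronic share within the range of total RNA.

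Processing gave another order. Tet1 had the highest rate, 92.6 per hour at 30 min (replicates 96.8 and 89.1), at percentiles 95.5 to 96.9 over the 3 times. Dnmt3l followed with 49.3 per hour and percentiles 91.4 to 93.9. Dnmt1, Uhrf1, Dnmt3b and Tet2 had 28.2 to 33.0 per hour and Dnmt3a 13.7 per hour, where the median of all genes was 10.6. Tdg with 6.18 per hour (5.61 and 6.75) and Tet3 with 6.77 per hour (6.33 and 7.18) were below that median at each labeling time. The rate of Tdg depended on the summing. Its most abundant transcript, Tdg-001, had 26.3, 10.4 and 5.93 per hour at 15, 30 and 60 min, where the medians of all genes were 24.9, 10.6 and 5.68. For Dnmt3a, the most abundant form Dnmt3a-015 had 34.0 per hour at 30 min.

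Synthesis depends on how many transcripts are summed, and is given for the transcript of highest abundance. At 30 min it was 6709 per hour for Tet1-002 (replicates 6169 and 7248), 880 for Dnmt3l-004 (928 and 832) and 839 for Tet2-202 (743 and 935). For Dnmt3b-004 it was 678 per hour (768 and 587), for Dnmt3a-015 517 (539 and 494), for Uhrf1-004 491 (496 and 485) and for Dnmt1-201 423 (411 and 434). Tdg-001 had 200.1 per hour and Tet3-002 27.4. As for the levels in total RNA, Tet1 was first and Tet3 last.

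**Figure D5:**
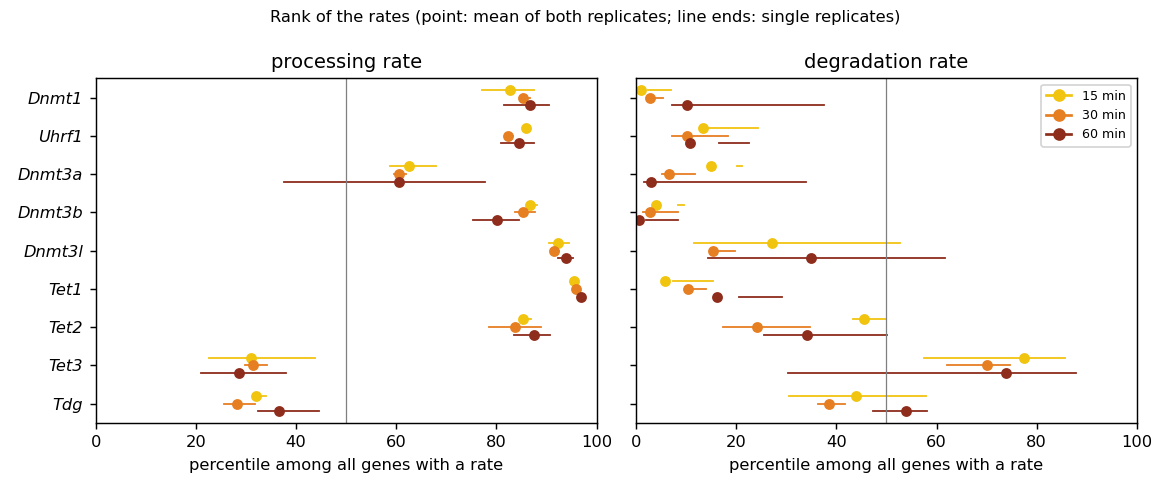
Percentile of the processing and degradation rate of each gene among all genes with a rate, at 15, 30 and 60 min; points are from the mean of both replicates, and line ends mark the replicates, each ranked among its own genes, so a point can lie outside its line. Dnmt3b degradation lies at 0.533 to 3.97 and Tet1 processing at 95.5 to 96.9.

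Among 37 other genes of the pathway, 33 could be tested for exonic abundance. Of these, 7 were lower in labeled RNA, where 11.6% of all 13977 genes tested were lower. The single lists are short, so counts within them are given as a description. The median was -0.07, near that of all genes. Maintenance partners held 3 of the 7, namely Hells, a chromatin remodeler needed for methylation (-0.56, adjusted p = 0.0221), Usp7, which deubiquitinates DNMT1 and UHRF1 (-0.53, adjusted p = 0.0206), and Trim28, the corepressor at imprints (-0.39, adjusted p = 0.0420, limma). Pcna, Uhrf2, Zfp57 and Dppa3 did not pass. In base excision repair, 2 of 10 genes were lower, the strand-break sensor Parp1 (-0.67, adjusted p = 0.00140) and the uracil glycosylase Ung (-0.45, adjusted p = 0.0144, limma). In the methyl donor cycle, Mtr, which remakes methionine, was lower (-0.68, adjusted p = 0.0189, limma). Idh1, which makes the 2-oxoglutarate used by TET enzymes, was the 1 of 5 cofactor and partner genes to pass (-0.72, adjusted p = 0.0145, limma). Methyl-CpG readers passed in 0 of 5 cases. Introns were higher for 12 of 26 of these genes, against 32.3% of all genes, and the intronic to exonic ratio for 11 of 25, against 27.8%. These lists were not examined without labeled replicate 2 at 15 and 60 min.

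Genes whose exonic levels ran most like those of a member over the 12 libraries were sought among 6303 genes, as a description. All pairs share the same libraries and scaling. Dnmt3b was closest to Bcat1 (Pearson's r 0.970) and Ptpn11 (0.969), and Uhrf1 to Usp10 (0.981) and Trp53 (0.969). Tet1 was closest to Macf1 (0.971) and Dync1h1 (0.969), and Tet2 to Ap3m1 (0.961) and Fkbp15 (0.943).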

How the data were processed

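The authors removed rRNA reads, aligned the rest to exonic and intronic sequence and quantified them. The submitters' processing notes name STAR 2.5.0, RSEM and mm10. The deposited unit is a signal, a length-normalized abundance per transcript for exons and introns, scaled together within a library, which the labels do not explain. Values of 1 or less were missing (lowest 1.01) and taken as 0. Whether reads were divided among transcripts of a gene is not given in the sources used here. Transcripts were assigned to genes with GENCODE M1, which held 83847 of 111672 Ensembl transcripts (75.1%), including 6 of 7 Tet1, 1 of 2 Tet2 and 2 of 3 Tet3 transcripts of that annotation. Promoters came from RefSeq.

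Exonic and intronic values were summed per gene, and genes with a mean of at least 20 over 12 libraries were tested with limma 3.58.1 under R 4.3.3. Values entered as log2(value + 1), labeling time was a factor, a mean-variance trend was used except for the ratio, and p-values were adjusted over all genes by Benjamini-Hochberg at 0.05. Fold changes of low genes are understated on this scale. Time contrasts used the 6 groups. The test was tried on simulated data. Other steps used Python 3.11.15. No 2 libraries held identical values. All 9 members were named, with their most abundant transcripts and those past the threshold. The result of 1 gene of the pathway lists is not reported here. The members, gene lists and tests were chosen with earlier results of these data known. In all, 83 alternatives were planned and 10 were added after seeing the data. INSPEcT, the tool used by the authors for rates, was not run, and degradation during labeling was ignored.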

Additional observations from a re-analysis of the deposited data

Results flagged for a closer look

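Of 54 groups of 6 libraries examined, 3 had a library far from the others, where chance gives about 2.7. Dnmt1 exonic abundance was 274 in labeled replicate 2 at 60 min, against a median of 217 in labeled RNA. Uhrf1 exonic abundance was 1549 in labeled replicate 2 at 15 min, against a median of 1165. Both are labeled libraries whose intronic share was within the range of total RNA, and both flagged values lay toward the total libraries. That was not so for every gene. Dnmt3b and Uhrf1 had their lowest labeled value in replicate 2 at 60 min (2184 and 1075). The cause was not tested. Introns of Dnmt1 were 4.48% of its exonic abundance in total replicate 1 at 60 min, against a median of 3.46%.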

How the results depend on the processing

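Labeled and total libraries with the same replicate number showed no common deviation beyond a correlation of 0.10. This does not show that they came from different cultures. The main tests took them as unpaired, whereas rates of single replicates joined libraries of the same number. Correlations of their deviations were -0.07, 0.05 and -0.19 for exons and 0.10, 0.05 and -0.34 for introns at 15, 30 and 60 min. With the replicate block, 1270 in place of 2353 genes and 3 in place of 5 members passed for exons (Uhrf1 at an adjusted p of 0.0511 and Tet1 of 0.0520 by limma did not), 4470 transcripts and 17 member transcripts passed, and 0 genes at 30 min. With numbers crossed at 60 min, added after seeing the data, 2716 genes, 5 members, 9153 transcripts and 30 member transcripts passed. For Tdg the intronic to exonic ratio passed under either block.

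Leaving out libraries gave 0 to 3238 genes and 0 to 5 members for exons, 0 to 12699 transcripts and 0 to 34 member transcripts, 1094 to 8141 genes and 0 to 5 members for introns and 216 to 6401 genes and 0 to 7 members for the ratio. Without labeled replicate 2 at 15 min, 4945 genes passed for introns and 4803 genes with 6 members for the ratio, and 5, 3 and 2 genes for total RNA over time, for 15 min and for the difference between fractions. Without replicate 1, no member passed in any comparison of the fractions. Without replicate 2, 4801 genes passed for introns, and 3639 genes and 5 members for the ratio. Fits with 6 groups could not be made without a replicate number and were not run.

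With a filter of 200, 3265 transcripts, 305 genes and 0 members for introns and 310 genes for the ratio passed, of fewer tested. With no filter, 4659 genes passed for introns. A common intronic total gave 1898 genes (1560 higher, 338 lower), quantile normalization 1644 (871 and 773) and median centring 1712 (756 and 956), with 1 member each. The median over protein-coding transcripts gave 1237 genes and 0 members for introns. A pseudocount of 20 gave 5 members for the ratio. For the contrasts over time or at 1 time, a pseudocount of 20 gave 4 genes in total RNA, 3, 7 and 1 at 15, 30 and 60 min and 4 for the difference between fractions. No filter gave 6 in labeled and 8 in total RNA over time, 9, 16 and 6 at the single times and 8 for the difference. No member was among those counted as called. The median synthesis rate of the members was 636 per hour with the most abundant transcript and 2969 with sums.

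Directions turned as follows, none past the threshold except Dnmt3a introns under the 3 scalings. Intronic estimates under a common total, quantile normalization and median centring were -0.47, -0.55 and -0.64 for Dnmt3a, -0.015, -0.066 and -0.18 for Dnmt3b, -0.47, -0.60 and -0.64 for Tet2 and -0.39, -0.45 and -0.55 for Tet1. For Tdg they were -0.0020 and -0.11 under the latter pair. Dnmt3a introns were at -0.029 with protein-coding transcripts only. Lowest without replicate 1, and over all sets of libraries left out, intronic estimates ran from -0.051 to 0.23 (Dnmt3a), -0.52 to 0.71 (Tet2) and -0.42 to 0.72 (Tet1), the ratio from -0.37 to 0.75 (Tet2) and -0.049 to 1.21 (Tet1), and Tet3 exons from -0.22 to 0.43. Under quantile normalization exons were at -0.069 for Tet3 and 0.011 for Tet2, over time in labeled RNA at 0.043 for Tdg and -0.0093 for Tet1, at 30 min at -0.26 for Tet3, and at 60 min at 0.073 for Dnmt3l, 0.013 for Tdg and 0.024 for Tet2. The difference between fractions over time was 0.11 for Uhrf1 without labeled replicate 2 at 15 min. The causes were not tested. Exonic calls of all these genes were lost when all libraries of either replicate number were left out: Dnmt1, Dnmt3a, Dnmt3b, Uhrf1 and Tet1. Apart from those fits, calls of Dnmt1, Dnmt3a and Dnmt3b held in 15 of 15 other settings and those of Uhrf1 and Tet1 in 14 of 15.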
